A study of Homo sapiens with 6 samples.

Results

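The genes examined here encode the enzymes and transporters that carry glucose to pyruvate and lactate, a set of genes induced in hypoxia, and HIF1A. They were followed in PC9 cells that survived erlotinib, an inhibitor of the EGFR kinase. Of 35 genes on the list, 32 were measured by probe sets annotated to a single gene, 73 probe sets out of the 54613 tested on the array. SLC16A1, SLC16A3 and CA9, which encode lactate transporters and a carbonic anhydrase, were not analysed here. The measured members comprised 23 enzyme and transporter genes (51 probe sets), 8 HIF target genes (21 probe sets) and HIF1A (1 probe set). Membership went by gene name, and no threshold on these arrays entered the rule. The genes were, however, chosen with earlier results of these data known, so shares of called members are descriptions only.

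PC9 cells come from a non-small cell lung cancer with an activating EGFR mutation, and those used here also carried a stably integrated GFP vector. The study was about microRNAs in reversible tolerance to cancer drugs, and these arrays set drug-tolerant persisters (DTPs), the subpopulation of cells alive after prolonged drug exposure, against the parental population. RNA was hybridized to Affymetrix Human Genome U133 Plus 2.0 arrays, with 3 arrays of DTPs and 3 of parental cells. DTPs had been in 2 µM erlotinib for 9 days, begun at 80% confluency, and were collected on day 10. Parental cells carried the same vector and received DMSO. The protocol in the labels has them collected on day 3 at 100% confluency, whereas the design text and the study's methods give DMSO for 9 days as well, and which of these holds is not settled here. Drug, time in culture and cell density therefore cannot be told apart, nor can survival of a subset of cells and a change within cells. The labels do not say whether the 3 arrays of a group came from separate cultures, so the p-values reflect no more than the spread among these 6 arrays, which may be technical.

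Glycolysis splits glucose into pyruvate in the cytosol, and tumour cells often run it fast and pass much of the pyruvate to lactate. Glucose enters through transporters of the GLUT family, is trapped by hexokinase and committed to the pathway by phosphofructokinase. Many of these genes are induced in hypoxia by HIF-1, a heterodimer whose α subunit, encoded by HIF1A, is made continuously and destroyed in oxygen after prolyl hydroxylases mark it for the VHL ubiquitin ligase. HIF-1 activity is thus set largely at the protein, and no protein was measured here.

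Some facts of the whole series bear on these values. Array medians lay between 7.27 and 7.32 log2 units, and Pearson's r over all probe sets, which are not independent replicates, was 0.9968 to 0.9979 within groups and 0.9701 to 0.9754 across them. Of 8 genes induced by ERK signalling downstream of EGFR, 7 were called lower in DTPs (87.5%, against 6.13% of all genes). Epithelial markers were present, with EPCAM at 13.57 in DTPs and 13.76 in parental cells, and of 12 epithelial or lung markers only KRT7 was called (log2 fold change 0.97, or 0.38 and no call with the mean of its probe sets). NKX2-1, a marker of lung lineage, averaged 5.71 in DTPs and 5.56 in parental cells, below the median of 7.29 of all probe sets. No fibroblast marker (8 measured) or blood marker (5 measured) was called. The fibroblast marker LUM, at 4.36 in both groups, was however called higher with the mean of its 2 probe sets (0.60). Of 5 endothelial markers PECAM1 was called lower (-0.69). That call was lost when arrays were centred on spike-in controls (-0.54) or ribosomal protein genes (-0.57). Of the 5 probe sets of PECAM1, 4 were called lower, and the mean of all 5 gave a larger decrease (-1.29). The 3′ minus 5′ difference of the GAPDH control probe sets, a sign of RNA integrity, was -0.175 ± 0.002 in DTPs and -0.152 ± 0.016 in parental cells (SD, n = 3 each), with p = 0.1 in a two-sided exact permutation test, the smallest p that 3 against 3 arrays allow. The same difference for ACTB was 0.056 ± 0.028 in DTPs and 0.167 ± 0.025 in parental cells, with groups that did not overlap and the same exact permutation p of 0.1. The part of RNA integrity in the results below was not tested.

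Of the 32 measured members, 5 were called higher and 4 lower in DTPs, where a call means an adjusted p under 0.05 (limma, Benjamini-Hochberg over 19775 genes) and a fold over 1.5. These 9 genes are 28.1% of the members, against 14.2% of all genes, 8.08% of which were called higher and 6.13% lower. All members but ENO2 are among the 12701 genes read by a probe set at or above the median of all probe sets. In a fit of those genes alone 1394 were called higher and 1116 lower. The split over all genes depended on the scaling, with 1597 genes higher and 1212 lower as deposited, 2156 and 844 with arrays centred on ribosomal protein genes, and 2290 and 795 with arrays centred on spike-in controls. The mean of the spike-in controls was 11.01 ± 0.11 in DTPs and 11.16 ± 0.10 in parental cells (SD, n = 3 each), and the groups overlapped. The genes called higher were SLC2A3, PFKFB3, ADM, EGLN3 and ANKRD37. Those called lower were HK2, PDK1, VEGFA and NDRG1. The changes ran in both directions in each class: 2 enzyme or transporter genes rose and 2 fell of 23, and 3 HIF targets rose and 2 fell of 8. Without the fold minimum 10 members were higher and 11 lower at an adjusted p under 0.05, 21 of 32. Of all 19775 genes 8797 passed it (44.5%).

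**Figure D1:**
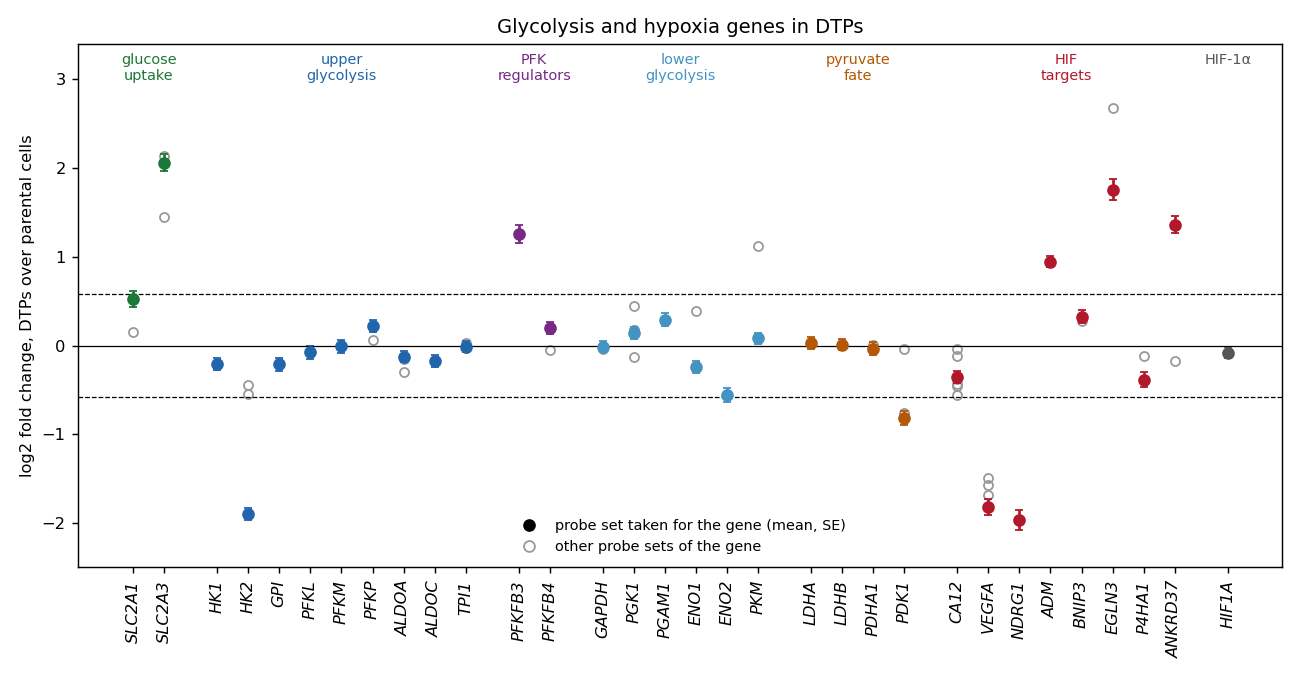
Log2 fold change of each measured member, DTPs over parental cells, grouped by role along the horizontal axis. Filled points are the probe set taken for the gene with limma's SE, open points the other probe sets of that gene, and dashed lines mark a fold of 1.5. SLC2A3, PFKFB3, ADM, EGLN3 and ANKRD37 lie above the upper line, HK2, PDK1, VEGFA and NDRG1 below the lower one, and the other 23 members lie between the lines.

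HIF-1 binds DNA at a short core, ACGTG or GCGTG. This core was sought on both strands, overlaps included, in the RefSeq promoter windows of the members (GRCh38.p14, 250 bases before to 50 after a transcription start), of which 29 measured members had at least 1. For each called member with a match upstream of the start, 1 stretch is shown from the window with the most matches, so that promoters of genes that rose and of genes that fell can be read side by side. Further matches of HK2 and PFKFB3 lie outside these stretches, and that of HK2 holds 4 of the 6 in its window. Each is from the + strand, and capitals mark the matches (CACGTG reads as ACGTG on either strand).
PFKFB3, called higher, chr10:6202809-6202844: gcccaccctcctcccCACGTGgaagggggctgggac
ADM, called higher, chr11:10304957-10304991: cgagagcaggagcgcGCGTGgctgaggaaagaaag
ANKRD37, called higher, chr4:185396664-185396717: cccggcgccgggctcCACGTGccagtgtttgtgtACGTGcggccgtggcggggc
HK2, called lower, chr2:74834961-74835041: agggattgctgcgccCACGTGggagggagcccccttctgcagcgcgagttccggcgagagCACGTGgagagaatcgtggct
PDK1, called lower, chr2:172556058-172556089: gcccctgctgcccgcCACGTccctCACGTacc

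The core was found in 35 of the 52 windows of the measured members (67.3%), against 17012 of 35116 windows of all genes (48.4%). Both directions of change were represented: 3 of 4 genes called higher and both genes called lower for which a window was given had at least 1 match, 5 of 6 called genes in all (83.3%). The share was 27 of 29 among the measured members (93.1%) and 52.4% among all genes with a window. The window of EGLN3 held none. Members that were not called also had the letters, with 6 matches in a window of LDHA, 6 in that of BNIP3 and 5 in that of ALDOC, compared with 6 in a window of HK2 and 3 in that of ANKRD37. A match is a description of letters and not a bound site. SLC2A3, VEGFA and NDRG1 had no window in the table used.

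SLC2A3 encodes GLUT3, a transporter with high affinity for glucose. Its log2 expression was 10.61, 10.84 and 10.54 on the DTP arrays, against 8.65, 8.73 and 8.42 on the parental arrays. The lowest DTP array stood well above the highest parental array. SLC2A3 rose 4.17-fold (log2 fold change 2.06 ± 0.10, SE from 3 arrays per group, limma adjusted p = 3.7e-09), and a call in the same direction was made for all 3 of its probe sets. The brightest of them, of a type that can bind other transcripts, gave a smaller log2 fold change of 1.45. Another pair of probe sets, annotated to SLC2A3 together with its close paralog SLC2A14, was also called higher, with log2 fold changes of 1.59 and 1.95, and such probe sets cannot separate the genes.

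SLC2A1 encodes GLUT1, the widespread basal glucose transporter. Its log2 expression was 9.78, 9.91 and 10.09 on the DTP arrays, against 9.41, 9.29 and 9.50 on the parental arrays. The groups did not overlap, but the difference of 0.53 ± 0.09 (1.44-fold, limma adjusted p = 3.3e-04) stayed under the fold minimum. It passed that minimum without DTP replicate 1 (0.60) and under 2 other scalings of the arrays (0.65 and 0.67). Its other probe set had a log2 fold change of 0.15.

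HK2 changed in the opposite direction from SLC2A3. It encodes the inducible hexokinase that many tumours express strongly. Its log2 expression was 9.35, 9.41 and 9.48 on the DTP arrays, against 11.30, 11.33 and 11.33 on the parental arrays. Arrays within a group differed by little compared with the gap between groups. HK2 was 3.74-fold lower in DTPs (log2 fold change -1.90 ± 0.07 SE, limma adjusted p = 2.3e-10), the lowest adjusted p among the members. The other probe sets of HK2 had the same sign and smaller differences, -0.55 and -0.44, and were not called. With the mean of all 3 the log2 fold change was -0.97, still a call. HK1, the hexokinase most tissues express constitutively, had a log2 fold change of -0.21 (limma adjusted p = 0.025).

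Phosphofructokinase itself showed no called change in any of its 3 genes. The liver type PFKL had a log2 fold change of -0.08, the muscle type PFKM -0.01 and the platelet type PFKP 0.22, the last with a limma adjusted p of 0.018. Its allosteric activator, fructose 2,6-bisphosphate, is made by enzymes of the PFKFB family, of which PFKFB3 has a high ratio of kinase to phosphatase activity. PFKFB3 stood at 9.86, 10.34 and 10.08 on the DTP arrays, against 8.91, 8.85 and 8.74 on the parental arrays. All DTP arrays were above all parental arrays, with a wider spread among DTPs. PFKFB3, read by 1 probe set, rose 2.39-fold (log2 fold change 1.26 ± 0.10 SE, limma adjusted p = 6.8e-07). PFKFB4, a relative that is also induced in hypoxia, had a log2 fold change of 0.20 (limma adjusted p = 0.03).

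The remaining enzymes of the upper pathway stayed within narrow limits. GPI, which isomerizes glucose 6-phosphate, had a log2 fold change of -0.21, the aldolases ALDOA and ALDOC -0.13 and -0.17, and triosephosphate isomerase TPI1 -0.01. Of the 9 genes from hexokinase to triosephosphate isomerase, HK2 alone was called. None of the 6 genes from GAPDH to pyruvate kinase was called. GAPDH, which is often used as a reference for other transcripts, was at 14.81, 14.82 and 14.86 on the DTP arrays, against 14.85, 14.84 and 14.85 on the parental arrays. The groups overlapped, and the log2 fold change was -0.01 ± 0.06 (limma adjusted p = 0.87) and became 0.06 to 0.13 under 3 other scalings of the arrays. ALDOA, GAPDH and LDHB were read only by probe sets of a type that can bind other transcripts.

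Among the other genes of the lower pathway, phosphoglycerate kinase PGK1 had a log2 fold change of 0.14, phosphoglycerate mutase PGAM1 0.29 and the enolases ENO1 and ENO2 -0.24 and -0.55. ENO2, neuron-specific enolase, was at 6.54, 6.48 and 6.50 on the DTP arrays, against 6.90, 7.08 and 7.19 on the parental arrays. It was the only member below the median of all probe sets in both groups, and it passed the fold minimum without parental replicate 1 (-0.63). PKM encodes pyruvate kinase, the last step before pyruvate. The probe set taken for PKM averaged 13.92 in DTPs and 13.83 in parental cells, a log2 fold change of 0.08 (limma adjusted p = 0.34). A second probe set of PKM was called higher, at 8.40, 8.55 and 8.50 on the DTP arrays, against 7.33, 7.36 and 7.41 on the parental arrays (log2 fold change 1.12 ± 0.07 SE). With the mean of both probe sets PKM was called higher (0.60), and the arrays do not say which of them reads the main transcript.

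At the fate of pyruvate, the genes of lactate dehydrogenase differed by less than the spread between replicates. LDHA, whose product favours lactate formation, was at 14.21, 14.25 and 14.34 on the DTP arrays, against 14.24, 14.21 and 14.26 on the parental arrays. The groups overlapped, and the log2 fold change was 0.03 ± 0.07 (limma adjusted p = 0.74) and changed sign without DTP replicate 3 (-0.0058). LDHB, the form of oxidative tissues, had a log2 fold change of 0.01, and PDHA1, the catalytic subunit of pyruvate dehydrogenase, -0.04. PDK1 encodes a kinase that switches pyruvate dehydrogenase off. It was at 9.57, 9.67 and 9.79 on the DTP arrays, against 10.40, 10.56 and 10.50 on the parental arrays. No DTP array reached the parental range, and PDK1 was 1.76-fold lower (log2 fold change -0.81 ± 0.08 SE, limma adjusted p = 2.3e-06). Of its 3 probe sets 2 were called lower and the other stood at -0.03, and with the mean of all 3 PDK1 was no longer past the fold minimum (-0.54).

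**Figure D2:**
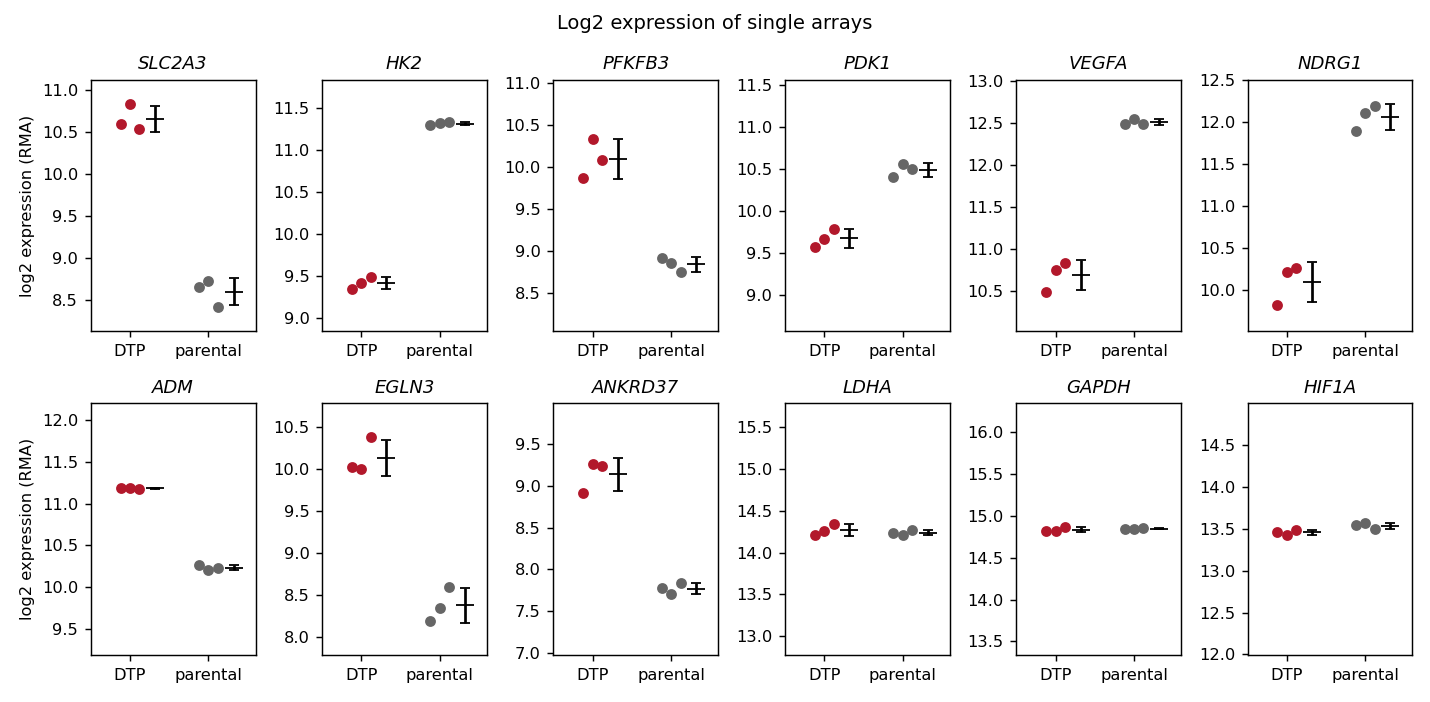
Log2 expression (RMA) on single arrays of the 9 called members and of LDHA, GAPDH and HIF1A, with DTPs left and parental cells right in each panel. Points are arrays, bars are the group mean and SD (n = 3), and each panel spans the same range of log2 units around its own midpoint. The groups lie apart in the 9 called genes, 5 with DTPs above and 4 with DTPs below, and close together in LDHA, GAPDH and HIF1A.

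The HIF targets changed in both directions. VEGFA, the main growth factor for blood vessels and a classical target of HIF-1, was at 10.49, 10.75 and 10.84 on the DTP arrays, against 12.50, 12.55 and 12.49 on the parental arrays. No DTP array came near the parental range. VEGFA was 3.53-fold lower in DTPs (log2 fold change -1.82 ± 0.09 SE, limma adjusted p = 4.0e-09), and all 4 of its probe sets were called lower, with log2 fold changes between -1.82 and -1.49.

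NDRG1, a cytosolic protein induced by hypoxia and other stresses, showed a decrease of like size. It was at 9.82, 10.21 and 10.25 on the DTP arrays, against 11.89, 12.11 and 12.19 on the parental arrays. The single probe set gave a 3.91-fold lower level in DTPs (log2 fold change -1.97 ± 0.11 SE, limma adjusted p = 2.1e-08).

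EGLN3 encodes the prolyl hydroxylase PHD3, which marks HIF-α for destruction and is itself induced by HIF. It was at 10.02, 10.00 and 10.38 on the DTP arrays, against 8.19, 8.34 and 8.60 on the parental arrays. The groups were separate, and EGLN3 rose 3.38-fold (log2 fold change 1.76 ± 0.12 SE, limma adjusted p = 8.0e-08). Its other probe set gave a larger increase (2.68), at 9.78, 9.62 and 9.87 on the DTP arrays, against 6.89, 7.27 and 7.08 on the parental arrays.

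ANKRD37, an ankyrin repeat protein whose gene responds to HIF-1, was at 8.91, 9.26 and 9.23 on the DTP arrays, against 7.77, 7.70 and 7.84 on the parental arrays. It rose 2.57-fold (log2 fold change 1.36 ± 0.09 SE, limma adjusted p = 9.8e-08). Its other probe set, of a type that can bind other transcripts, had the opposite sign (-0.17) and was not called, and with the mean of both the gene was just past the fold minimum (0.60). ADM encodes adrenomedullin, a peptide that widens blood vessels. The gene was at 11.18, 11.19 and 11.17 on the DTP arrays, against 10.26, 10.20 and 10.23 on the parental arrays. The spread within each group was small, and ADM rose 1.93-fold (log2 fold change 0.95 ± 0.06 SE, limma adjusted p = 9.2e-08).

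The other HIF targets showed differences under the fold minimum, each with an adjusted p under 0.05. BNIP3, a receptor for the removal of mitochondria, had a log2 fold change of 0.33 (limma adjusted p = 0.0037). P4HA1, a subunit of the prolyl hydroxylase of collagen, had a log2 fold change of -0.39 (limma adjusted p = 0.0021). CA12, a carbonic anhydrase of the cell surface, had a log2 fold change of -0.35 (limma adjusted p = 8.0e-04). All 7 probe sets of CA12 had negative values, and none was called.

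HIF1A was among the bright transcripts in both groups. It was at 13.46, 13.42 and 13.49 on the DTP arrays, against 13.54, 13.57 and 13.49 on the parental arrays. The log2 fold change of -0.08 ± 0.06 did not pass the test (limma adjusted p = 0.34), although the groups did not overlap, the nearest arrays differing in the third decimal. It turned positive under 2 other scalings of the arrays (0.04 and 0.07).

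Set side by side, the classes had like medians and unlike spreads. The median log2 fold change was -0.01 over the enzymes and transporters and -0.01 over the HIF targets, against -0.05 over all genes, and both class medians became 0.11 with arrays centred on ribosomal protein genes and 0.13 with arrays centred on spike-in controls. The median size of the log2 fold change regardless of sign was 0.20 for enzymes and transporters and 1.15 for HIF targets, against 0.17 for all genes. Calls covered 4 of 23 enzyme and transporter genes (17.4%), a share near the 14.2% of all genes, and 5 of 8 HIF targets (62.5%). With dim probe sets left out 2 of 22 enzyme and transporter genes were called higher and 2 lower. In that fit 3 of 8 HIF targets were higher and 2 lower, against 1394 and 1116 of 12701 genes. All 8 HIF targets had groups that did not overlap, as did 16 of the 23 enzyme and transporter genes and 53.7% of all genes. Whether the classes differ was not tested, since the genes were chosen with earlier results of these data known. Counted by probe set, calls were made for 17 of 73 (23.3%), with DTPs above in 9 and below in 8, against 12.5% of all probe sets, 7.56% above and 4.93% below. An adjusted p under 0.05 alone was reached by 39 of the 73, against 21111 of all 54613 probe sets (38.7%). Of the 21 members with more than 1 probe set, 15 had all of them on the same side of 0.

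Where several member genes serve a step, SLC2A3 but not SLC2A1, HK2 but not HK1 and PFKFB3 but not PFKFB4 was called. In the aldolase, enolase and lactate dehydrogenase pairs neither gene was. The difference within each pair was not tested. Some genes of these families outside the member list were also called, among them SLC2A10 (1.28), HKDC1 (-1.58) and PFKFB2 (0.80). PFKFB2 lost the call with the mean of its probe sets (0.32). SLC2A2, SLC2A4, HK3 and PFKFB1 were not called. Of the 11 measured enzymes and transporters known as targets of HIF-1, SLC2A3 and PFKFB3 rose, HK2 and PDK1 fell and 7 were not called. The 4 called genes are 36.4% of the 11, against 14.2% of all genes. The mean log2 difference from the parental group over the 23 enzyme and transporter genes was -0.03, 0.03 and 0.07 on the DTP arrays, and over the 8 HIF targets -0.15, 0.00044 and 0.10. These means average members that changed in opposite directions, from -2.24 to 1.65 for the HIF targets on the array of DTP replicate 1, and so do not show that the arrays resembled the parental group.

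Genes of the same pathways outside the member list also changed in both directions, in lists that were likewise chosen with earlier results known. Of 28 other genes of glucose uptake, glycolysis and gluconeogenesis, 8 were called higher and 2 lower (35.7%, against 14.2% of all genes), and 5 were called higher when all probe sets of a gene were averaged. BPGM, which makes 2,3-bisphosphoglycerate from a glycolytic intermediate, was at 11.80, 11.75 and 11.59 on the DTP arrays, against 8.32, 8.33 and 8.27 on the parental arrays. BPGM rose 10.6-fold (log2 fold change 3.41 ± 0.07 SE, limma adjusted p = 4.8e-12). SLC2A10, a transporter of the GLUT family, also rose (1.28). PCK2, the mitochondrial enzyme that makes phosphoenolpyruvate, fell by 2.43 on the log2 scale, and HKDC1, a further hexokinase, by 1.58. HKDC1 thus changed in the same direction as HK2.

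Of 14 genes of pyruvate transport and entry into mitochondria, 1 was called higher and 2 lower (21.4%), a share near the 14.2% of all genes. PDP1, the phosphatase that switches pyruvate dehydrogenase on and so opposes PDK1, was 2.77-fold lower (log2 fold change -1.47), and pyruvate carboxylase PC was lower by a log2 fold change of -0.79. The monocarboxylate transporter SLC16A7 was called higher (0.81), with DTP arrays at 7.34, 6.62 and 7.36, against parental arrays at 6.20, 6.23 and 6.44. Both group means were under the median of all probe sets. PDK1 and PDP1, with opposite roles on the same enzyme, were thus both lower in DTPs.

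Of 9 genes that control HIF, CITED2 was called higher (0.95) and VHL lower (-0.68), 22.2% against 14.2% of all genes. CITED2 competes with HIF-α for its coactivators, and VHL is part of the ligase that removes HIF-α. The call of VHL was lost under both centrings (-0.55 and -0.53) and with the mean of its probe sets (-0.51), and that of CITED2 with the mean (0.57). EPAS1, which encodes HIF-2α, had a log2 fold change of 0.02 and the prolyl hydroxylase EGLN1 of 0.30. EGLN3 was called higher among the prolyl hydroxylases, and EGLN1 and EGLN2 were not. EGLN2, read by 1 probe set, averaged 6.87 in DTPs and 6.99 in parental cells, both under the median of all probe sets.

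Of 33 further genes known to respond to HIF, 5 were called higher and 6 lower (33.3%, against 14.2% of all genes). TMEM45A, a transmembrane protein, was at 11.84, 11.97 and 11.92 on the DTP arrays, against 7.90, 7.88 and 7.59 on the parental arrays, a 17.4-fold rise (log2 fold change 4.12 ± 0.09 SE, limma adjusted p = 4.7e-12). P4HA2, a paralog of P4HA1 that also serves collagen hydroxylation, rose 3.06-fold (log2 fold change 1.61, and 0.77 with the mean of its 3 probe sets). ERRFI1, an inhibitor of EGFR that is also induced by EGFR signalling, had a log2 fold change of -2.26, and the secreted glycoprotein STC2 of -1.53. Among 5 genes of glucose sensing, MLXIP was called higher (0.66) and ARRDC4 lower (-0.78), 40% against 14.2% of all genes. MLXIP lost the call with the mean of its probe sets (0.53).

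**Figure D3:**
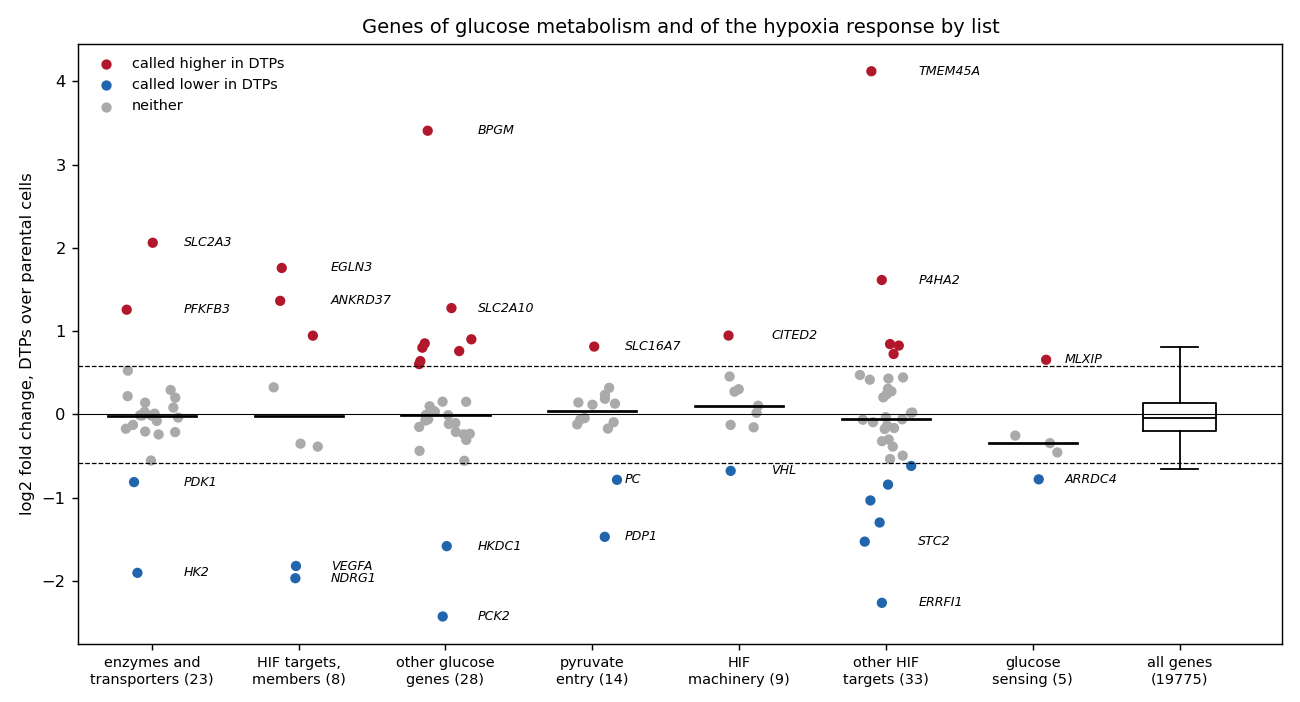
Log2 fold change, DTPs over parental cells, of each measured gene by list, with the number of genes in parentheses. Red points were called higher and blue points lower in DTPs, grey points neither, black bars are list medians, dashed lines mark a fold of 1.5, and the box at the right gives the median and quartiles of all 19775 genes with whiskers at percentiles 5 and 95. Each of the lists shown held called genes in both directions.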

How the data were processed

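RNA of PC9 cells with a GFP vector, in 3 DTP and 3 parental samples, was hybridized to Affymetrix Human Genome U133 Plus 2.0 arrays. The deposited values are log2 probe set summaries, which the authors made, per the labels, by robust multi-array averaging (RMA, affy package) with quantile normalization of intensities between arrays. No versions were given in the sources used. This scaling hides a change of total mRNA, RMA gives no detection call, and folds of dim probe sets understate a change. The number of arrays limits the precision.

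Of 54675 probe sets, 62 controls were left out and 54613 tested. The platform annotation gave 1 symbol for 41091 of the tested probe sets, several for 1801 and none for 11721. Each of 19775 genes was read by its brightest single-gene probe set without an _x_at suffix (a mark of possible cross-hybridization), or by an _x_at probe set where there was no other (419 genes). The DTP arrays were set against the parental arrays in limma 3.58.1 (R 4.3.3, functions lmFit and eBayes, two-sided test without covariates), separately for genes and for probe sets, and p-values were adjusted by Benjamini-Hochberg. A call needed both a fold over 1.5 and an adjusted p under 0.05, as in the study's methods. Every fold in the text is read from a difference of group means in log2 units. The tests were checked on simulated data.

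Members and lists were chosen with earlier results of these data known. Values on every array are given for called members, LDHA, GAPDH, HIF1A and PDK1, and of each other list up to 4 called genes with the largest change are named. EPAS1, EGLN1 and EGLN2 are named for their roles, and further genes of the member families were named after their values were seen. SLC2A1, ENO2 and the second probe sets of PKM and EGLN3 were likewise given in full after their values were seen. Alternatives covered scaling (centring on 27 ribosomal protein genes or 18 spike-in probe sets, or cyclic loess), the choice of probe set, removal of dim probe sets, removal of each array, array weights, robust variances with an intensity trend, a block for the replicate number, the thresholds, and the methods' t-test. Promoter windows are those of RefSeq on GRCh38.p14, whose orientation was checked on 2001 overlapping pairs of windows.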

Additional observations from a re-analysis of the deposited data

How the results depend on the processing

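The calls of SLC2A3, PFKFB3, HK2, VEGFA, NDRG1, ADM, EGLN3 and ANKRD37 held under every alternative limma fit at the main thresholds. That of PDK1 held under every such fit except the mean of all probe sets of a gene (-0.54). Over all measured members and these fits, 448 values kept their direction and call, and 5 became calls. Of the other values 1 lost its call and 25, all of genes within a fold of 1.5, changed sign. Without the fold minimum 10 member genes and 17 member probe sets were higher and 11 genes and 22 probe sets lower. With a fold over 2 the genes were 4 and 3, as ADM (1.93-fold) and PDK1 (1.76-fold) fell short of it. With the methods' t-test they were 5 and 4.

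The median over all genes moved to 0.08 with ribosomal and 0.10 with spike-in centring, against -0.05 as deposited. The median of the enzymes and transporters moved to 0.11 and 0.13 under these centrings and to 0.053 with cyclic loess, and that of the HIF targets to 0.11 and 0.13. Log2 fold changes that changed sign were, with ribosomal centring, PFKL 0.047, PFKM 0.12, TPI1 0.11, GAPDH 0.11, PDHA1 0.087 and HIF1A 0.044. With spike-in centring they were PFKL 0.070, PFKM 0.14, ALDOA 0.022, TPI1 0.13, GAPDH 0.13, PDHA1 0.11 and HIF1A 0.067. With cyclic loess they were PFKM 0.017, TPI1 0.053, GAPDH 0.059 and PDHA1 0.0091, and with array weights LDHB -0.0071. SLC2A1 became a call with ribosomal (0.65) and spike-in centring (0.67), and PKM with the mean of its probe sets (0.60). The cause of these changes was not tested.

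When each array was left out in turn, PFKM ranged between -0.060 and 0.029, PDHA1 between -0.10 and 0.0072, LDHA between -0.0058 and 0.061, LDHB between -0.012 and 0.033 and TPI1 between -0.033 and 0.010. SLC2A1 ranged between 0.44 and 0.60, a call without DTP replicate 1, and ENO2 between -0.63 and -0.49, a call without parental replicate 1.

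Deviations from the group means of same-numbered arrays correlated at -0.127, 0.0826 and -0.0462, against -0.12 to 0.166 for differently numbered arrays. With 3 arrays per group these values do not settle whether the replicate numbers pair the arrays. With the replicate number as a block 5 member genes were again higher and 4 lower, with no call changed.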
